A study of Mus musculus with 2 samples.

Results

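The miR-181 family of the mouse comprises 6 hairpin genes, Mir181a-1, Mir181b-1, Mir181a-2, Mir181b-2, Mir181c and Mir181d, which lie as 3 pairs at 3 places in the genome. All 6 were found by gene identifier and symbol among the 1973 miRNA gene rows of a microRNA sequencing experiment. The tissue was the embryonic facial prominence, the set of buds that form the face and jaws, from mice of strain B6NCrl at embryonic day 14.5. The labels give no mutation and no treatment. There was 1 group with 2 biological replicates and 1 library from each. The labels call each sample 1 cranioface of 1 pup but give its sex as pooled, and the 2 collection days coincide with the replicates, so day and replicate cannot be told apart.

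A miRNA gene is transcribed as part of a longer RNA, cut to a hairpin and then to a short duplex, of which 1 strand, usually, is loaded into an Argonaute protein and guides it to messenger RNAs that pair with its seed, bases 2 to 8. The 5p arms of the miR-181 genes are the strands that the family is known for. In mice, miR-181a sets the sensitivity of developing T cells to antigen, miR-181b restrains inflammatory signalling in endothelium, and miR-181 accumulates as myoblasts differentiate.

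All 6 genes carry the same 5p seed, and 4 of the 6 carry a 5p arm that is letter for letter that of another member. The 5p arms, from the RefSeq annotation of GRCm38.p6, are shown because their identity decides which reads have a single origin. Capitals mark the seed.
miR-181a-5p (Mir181a-1 and Mir181a-2): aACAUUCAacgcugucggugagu
miR-181b-5p (Mir181b-1 and Mir181b-2): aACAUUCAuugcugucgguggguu
miR-181c-5p (Mir181c): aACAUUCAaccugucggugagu
miR-181d-5p (Mir181d): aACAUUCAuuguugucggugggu

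The seed ACAUUCA occurred in the 5p arms of these 6 genes and in no other gene of the RefSeq table. Outside the seed, miR-181c-5p differs from miR-181a-5p by 1 base in an alignment that allows gaps. miR-181d-5p differs from miR-181b-5p by the substitution U12C, counted from 1 at the 5′ end with the base of miR-181d first, beside the last base of miR-181b-5p, which miR-181d-5p lacks. The 4 distinct sequences therefore fall into 2 alike pairs, a with c and b with d.

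The 3p arms, which form the other strand of the duplex, are distinct in all 6 genes. They are shown because they are the annotated arms by which reads of the 4 genes with a copied 5p arm can be told apart. Capitals again mark bases 2 to 8.
miR-181a-1-3p: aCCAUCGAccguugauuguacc
miR-181a-2-3p: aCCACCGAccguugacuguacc
miR-181b-1-3p: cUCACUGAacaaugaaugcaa
miR-181b-2-3p: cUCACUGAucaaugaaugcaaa
miR-181c-3p: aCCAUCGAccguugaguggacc
miR-181d-3p: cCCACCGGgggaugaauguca

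Among the 3p arms there were 4 seeds in place of 1. Mir181c and Mir181a-1 share CCAUCGA, and Mir181b-1 and Mir181b-2 share UCACUGA. Between miR-181c-3p and miR-181a-1-3p the substitutions were G16U and G19U, and between the 3p arms of Mir181a-1 and Mir181a-2 they were U5C and U16C, the first gene's base being written first.

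The identity of the copies reaches past the annotated 5p arm into the hairpin. In the hairpins below, also from RefSeq on GRCm38.p6, capitals mark the longest stretch that the copies of one name share.
Mir181a-1: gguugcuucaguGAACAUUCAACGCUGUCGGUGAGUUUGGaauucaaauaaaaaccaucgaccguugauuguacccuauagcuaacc
Mir181a-2: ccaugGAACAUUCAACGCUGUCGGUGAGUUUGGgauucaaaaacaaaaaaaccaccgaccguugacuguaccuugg
Mir181b-1: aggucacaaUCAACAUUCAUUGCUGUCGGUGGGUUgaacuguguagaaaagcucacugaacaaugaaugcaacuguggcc
Mir181b-2: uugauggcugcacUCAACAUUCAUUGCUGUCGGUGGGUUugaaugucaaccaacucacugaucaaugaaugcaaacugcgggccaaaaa
Mir181d: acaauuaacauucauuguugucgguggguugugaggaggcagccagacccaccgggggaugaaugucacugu

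The miR-181a hairpins share 28 bases, which begin 1 base before the 5p arm and end 4 bases after it. In the miR-181b hairpins the shared stretch is 26 bases, begins 2 bases before the arm and ends with its last base, so the next base of the hairpin already differs between the copies. Every 20-base window of these 5p arms occurred in another miRNA hairpin, namely 4 of 4 windows of miR-181a-5p and 5 of 5 of miR-181b-5p. No 20-base window of any 3p arm, nor of the Mir181d hairpin or the 5p arm of Mir181c, occurred elsewhere in the table. Places outside annotated miRNA hairpins were not searched.

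**Figure D1:**
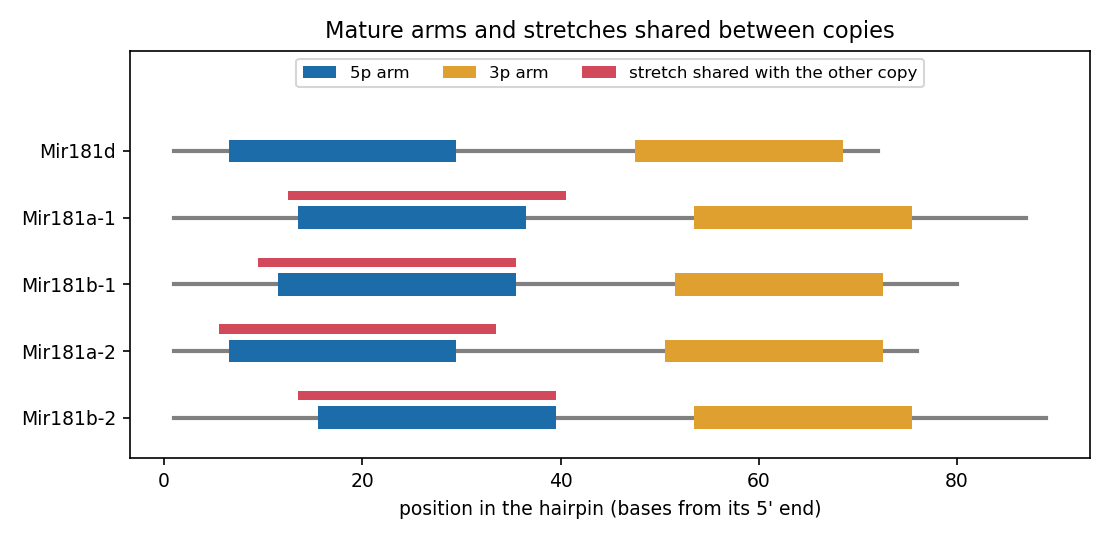
The 5 miR-181 hairpins with a RefSeq hairpin sequence, drawn to scale in bases from the 5′ end, with the 5p arm in blue, the 3p arm in yellow and the longest stretch shared with the other copy in red. The red bars, 28 bases in Mir181a-1 and Mir181a-2 and 26 bases in Mir181b-1 and Mir181b-2, cover the whole 5p arm and no base of the 3p arm, and Mir181d has none.

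The genomic settings of the 3 pairs differ. On assembly mm10, Mir181c (ENSMUSG00000065483.1) lies on chromosome 8 at 84178873 to 84178961 and Mir181d (ENSMUSG00000076338.1) at 84178716 to 84178787, both on the minus strand in an intron of Nanos3, which encodes an RNA-binding protein of germ cells, with 85 bases between them. Mir181a-1 (ENSMUSG00000065565.1) lies on chromosome 1 at 137966455 to 137966541 and Mir181b-1 (ENSMUSG00000065458.1) at 137966639 to 137966718, both on the plus strand and 97 bases apart. Both are in an intron of the noncoding gene Gm4258 and lie opposite an intron of the long noncoding RNA Gm26936 on the minus strand. Mir181b-1 is also inside an exon of the long noncoding RNA A430106G13Rik, which overlaps the last 11 bases of Mir181a-1. Mir181a-2 (ENSMUSG00000065423.1) lies on chromosome 2 at 38852735 to 38852810 and Mir181b-2 (ENSMUSG00000065578.1) at 38853830 to 38853918, on the plus strand with 1019 bases between them. They face an intron of Nr6a1, an orphan nuclear receptor gene of the early embryo, on the opposite strand, and Mir181b-2 also lies opposite an exon of Gm44144, a gene model of the GENCODE class TEC. The opposite-strand column held 0 counts for all 6 genes in both libraries.

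The deposited values are raw read counts. Replicate 1 held 2719153 and replicate 2 held 6602050 gene-strand counts over all miRNA genes, and levels are counts per 1000000 of that total (CPM). A count of 0 would allow 1.10 CPM in replicate 1 and 0.454 CPM in replicate 2, and all 6 members were above these limits. Reads placed at several positions stand in a summary row and enter no gene. They made up 29.8% of the reads of replicate 1 and 28.5% of those of replicate 2. Replicate 2 is the deeper library and has the narrower counting intervals. Intervals cover counting error only and treat each read as independent. No molecular identifiers are described, so they may be too narrow.

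The locus on chromosome 8 gave the highest counts of the family. Replicate 1 gave 12669 counts of Mir181c, or 4659 CPM, and replicate 2 gave 26214 counts, or 3971 CPM, with 4315 ± 487 CPM as the mean (SD, n = 2). As a share of all miRNA counts this was 0.466% for replicate 1, with a 95% Wilson interval of 0.458 to 0.474, and 0.397% for replicate 2, with one of 0.392 to 0.402. The gene stood at rank 48 of 1973 rows in each library. Its partner Mir181d, whose 5p arm resembles that of miR-181b, reached 3143 CPM in replicate 1 from 8547 counts and 2546 CPM in replicate 2 from 16810 counts, with 2845 ± 422 CPM as the mean. The lower of the Mir181c values was above the higher of the Mir181d values. Neither gene shares an arm with another gene, so neither has an annotated copy with an arm of the same letters.

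Mir181a-1 had the higher counts at the chromosome 1 locus and the third highest of the family. It stood at 1668 CPM in replicate 1, from 4535 counts, and at 1765 CPM in replicate 2, from 11655 counts. Its mean was 1717 ± 69.0 CPM, with the smallest relative spread of the 6 genes on this scale, 4.02% of its mean. That ranking depends on the scaling. With the TMM library sizes used for the test between libraries below, Mir181a-1 came to 1720 ± 175 CPM and Mir181a-2 to 121 ± 0.154 CPM. Its neighbour Mir181b-1 was the lowest member, with 84 counts or 30.9 CPM in replicate 1 and 163 counts or 24.7 CPM in replicate 2. The 95% Wilson interval of its share of miRNA counts was 0.0025% to 0.00382% for replicate 1 and 0.00212% to 0.00288% for replicate 2. The mean of Mir181b-1 was 27.8 ± 4.39 CPM, and its interval in replicate 1 overlapped that in replicate 2.

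At the chromosome 2 locus the order of the a and b genes was the other way round. Mir181b-2 gave 3215 counts in replicate 1, or 1182 CPM, and 5266 counts in replicate 2, or 798 CPM. Its mean was 990.0 ± 272 CPM, with the widest relative spread of the family, 27.5% of its mean. From 344 counts in replicate 1 and 767 counts in replicate 2, Mir181a-2 came to 127 CPM and 116 CPM in these libraries, with 121 ± 7.31 CPM as the mean. The pair thus differed in level in each library, with Mir181b-2 above Mir181a-2 in both.

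**Figure D2:**
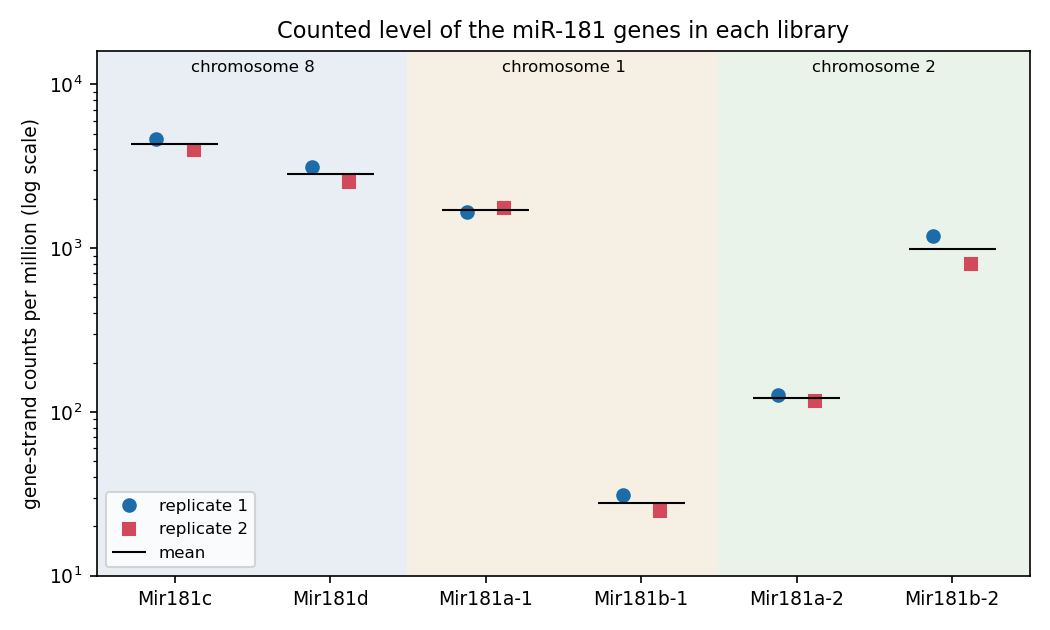
CPM of each miR-181 gene on a log axis, with replicate 1 as a circle, replicate 2 as a square and their mean as a line, grouped by chromosome. The order Mir181c, Mir181d, Mir181a-1, Mir181b-2, Mir181a-2, Mir181b-1 is the same in both libraries, from 4315 CPM down to 27.8 CPM in the mean. Only Mir181c and Mir181d have no copied arm, so the levels may rest on unlike reads.

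The order of the 6 levels was therefore the same in both libraries, with no overlap between the values of any gene and its neighbour in that order. From the highest to the lowest member the means spanned 155-fold. Of the 6 genes, 4 have a copied 5p arm, and reads placed at both copies enter neither. Mir181c and Mir181d have no copied arm, so the order is one of assigned counts and may compare unlike parts of the hairpins. Divided by the annotated length of each gene, 72 to 89 bases, the mean levels kept this order, at 48.5 CPM per base for Mir181c, 39.5 for Mir181d, 19.7 for Mir181a-1, 11.1 for Mir181b-2, 1.60 for Mir181a-2 and 0.347 for Mir181b-1. A miRNA read spans a whole arm rather than a random piece of the gene, so CPM without division by length is used elsewhere. The biases of adapter ligation also differ between sequences, and their part in these level differences was not tested.

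Summed by locus, most of the counts assigned to a member were on chromosome 8. The 6 genes together gave 29394 counts in replicate 1, which is 1.08% of its miRNA counts, and 60875 counts in replicate 2, which is 0.922%. Mir181c and Mir181d together held 72.2% of the family counts of replicate 1, with a 95% Wilson interval of 71.7 to 72.7, and 70.7% of those of replicate 2, with one of 70.3 to 71.0. The mean share was 71.4% ± 1.06 (SD, n = 2). The chromosome 1 pair held 15.7% of the family counts of replicate 1 (interval 15.3 to 16.1) and 19.4% of those of replicate 2 (19.1 to 19.7), with a mean of 17.6% ± 2.62. For the chromosome 2 pair the shares were 12.1% for replicate 1 (interval 11.7 to 12.5) and 9.91% for replicate 2 (9.68 to 10.2), with a mean of 11.0% ± 1.55. All 3 shares differed between the libraries by more than their counting intervals, while their order was the same.

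**Figure D3:**
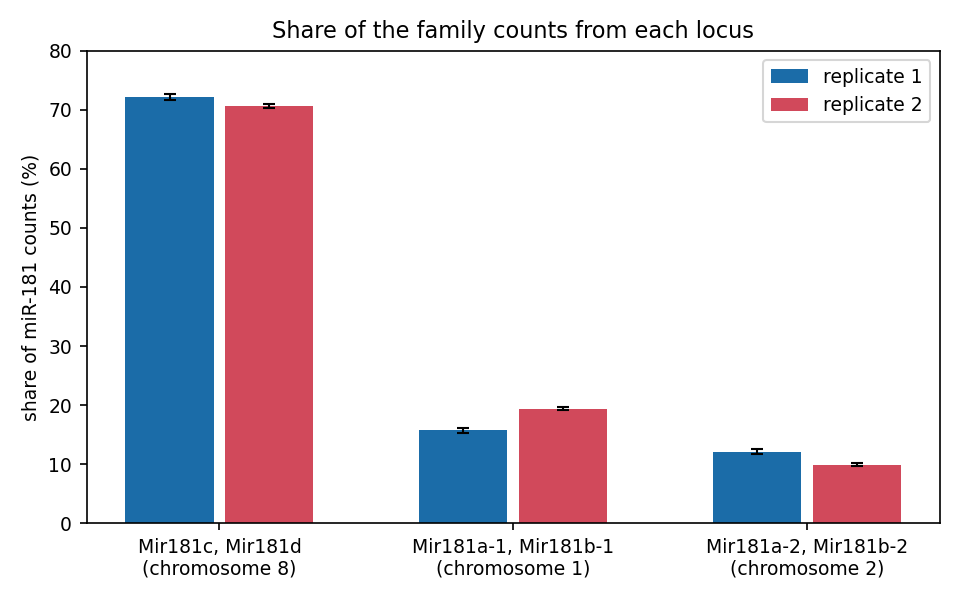
Share of the miR-181 counts from each locus in percent, replicate 1 in blue and replicate 2 in red, with bars from 0 and 95% Wilson intervals as error bars. The chromosome 8 pair holds 72.2% in replicate 1 and 70.7% in replicate 2, far above the other pairs in each library.

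On the log2 scale the chromosome 8 locus exceeded the chromosome 1 locus by 2.03 ± 0.24 (mean ± SD, n = 2), from 2.20 in replicate 1 and 1.86 in replicate 2. It exceeded the chromosome 2 locus by 2.70 ± 0.18, from 2.58 in replicate 1 and 2.83 in replicate 2. The chromosome 1 locus exceeded the chromosome 2 locus by 0.67 ± 0.42, from 0.38 in replicate 1 and 0.97 in replicate 2, so this difference was larger than its spread but varied most. No exact test between loci was made, since 2 libraries allow no p under 0.5. These sums set 2 genes without an identical arm elsewhere against 2 pairs in which the 5p arm is identical to a copy at the other locus. Reads of such a copied arm that were placed at both copies enter no gene, so how much of all miR-181 came from each locus was not measured.

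Within the loci, the ratio of the partners was closest at chromosome 8. Mir181c over Mir181d had a log2 ratio of 0.60 ± 0.05 (mean ± SD, n = 2), from 0.57 in replicate 1 and 0.64 in replicate 2. Mir181a-1 over Mir181b-1 had one of 5.95 ± 0.29, from 5.75 in replicate 1 and 6.16 in replicate 2. Mir181b-2 was above Mir181a-2 by 9.33-fold in replicate 1 and 6.86-fold in replicate 2. The partners of a locus stood at unequal levels in the counts, and the a gene was the higher on chromosome 1 and the lower on chromosome 2.

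For scale, 109 other pairs of neighbouring miRNA genes lay within 10 kb on 1 strand and passed an average of 10 counts per library in each gene. These other pairs were not split by whether their genes have copied arms. The fold of the higher over the lower mean CPM had a median of 7.80 among them, with quartiles of 2.44 and 47.2. Among these pairs 20 had a larger fold than Mir181a-1 over Mir181b-1 (61.8-fold), 52 a larger fold than Mir181b-2 over Mir181a-2 (8.16-fold) and 95 a larger fold than Mir181c over Mir181d (1.52-fold).

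The copies of one name on chromosomes 1 and 2 also stood far apart in the reads that could be assigned to 1 gene. Mir181a-1 exceeded Mir181a-2 by 13.2-fold in replicate 1 and 15.2-fold in replicate 2, and the log2 ratio averaged 3.82 ± 0.15 (SD, n = 2). Between the miR-181b genes the copy on chromosome 2 was the higher, with Mir181b-2 over Mir181b-1 at 38.1-fold in replicate 1 and 32.2-fold in replicate 2, and the log2 ratio averaged 5.13 ± 0.17. Reads that lie within the shared stretch, the whole 5p arm included, have a place in both copies. Where they were placed at both, they enter neither count. The folds then compare the remaining reads, such as those of the 3p arms, but which reads were counted was not examined. How much of miR-181a-5p or miR-181b-5p came from each copy was not measured.

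Other families with copied arms give a background for these folds. Of the 916 rows matched to the RefSeq table by symbol, 829 have no arm in common with another gene, 53 have 1 arm in common and 34 have every arm in common. Mir181c and Mir181d belong to the first class and the other 4 members to the second. The median level was 0.487 CPM in the first class, 26.5 CPM in the second and 0 CPM in the third. In the third class 8 of the 34 genes still had a mean of at least 10 counts, and the highest level was 961 CPM. Which reads gave these counts was not examined. Of the 53 genes with 1 arm in common, Mir181a-1 was at rank 3 by mean CPM, Mir181b-2 at rank 6, Mir181a-2 at rank 15 and Mir181b-1 at rank 25.

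In 12 other pairs of genes with 1 identical arm, both genes passed the minimum of 10 counts and had an arm of their own. Their fold of the higher over the lower mean CPM ranged from 1.04 to 28.9 with a median of 2.80. In the miR-181 family the same fold was 35.6 for Mir181b-2 over Mir181b-1, which 0 of the 12 exceeded, and 14.1 for Mir181a-1 over Mir181a-2, which 1 exceeded, Mir92-1 over Mir92-2. Genes outside the family in this comparison, such as Mir16-1 over Mir16-2 at 3.40 and Mir125b-1 over Mir125b-2 at 2.16, were listed after their values were seen. The minimum was passed by 40 of the 53 genes with 1 arm in common. Pairs with a copy below it were left out, so the largest folds may be missing from the 12. The comparison has no test, and the part of multiply placed reads in these folds was not tested.

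**Figure D4:**
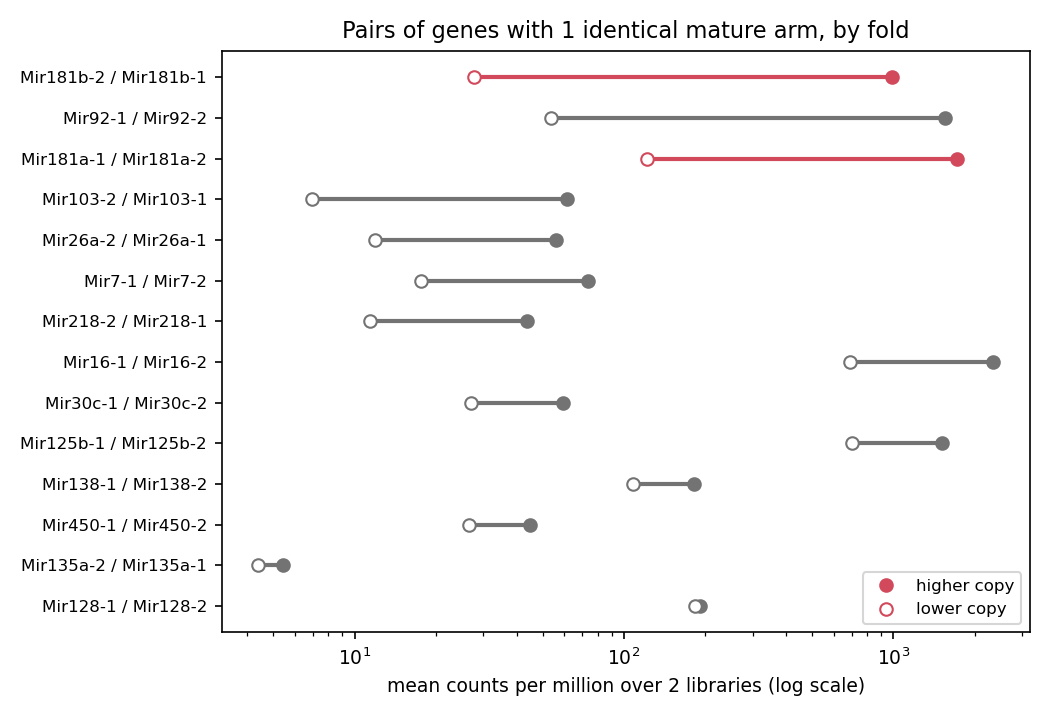
Mean CPM on a log axis for 14 pairs of miRNA genes with 1 identical mature arm, with the higher copy as a filled and the lower as an open circle, sorted by fold. The miR-181 pairs, in red, are at 35.6-fold and 14.1-fold, the first and the third from the top. Pairs with a gene below a mean of 10 counts are not drawn.

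The 2 libraries were also compared gene by gene, on a scale that sets the bulk of the miRNA genes level between them (TMM normalization). An exact two-sided binomial test over the 372 genes with a mean of at least 10 counts, with Benjamini-Hochberg adjustment at 0.05, asks whether the counts of 2 libraries differ beyond counting error. It compares libraries, not conditions, and it called 52.2% of all tested genes, 24.7% as higher and 27.4% as lower in replicate 1. Of the 6 members 4 were called, 3 higher and 1 lower, against that background of about every other gene. Scaling to total counts in place of TMM raised the median log2 ratio of all genes by 0.13 and changed the split of the called genes to 133 higher and 64 lower.

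Mir181b-2 differed most, with a log2 ratio of replicate 1 over replicate 2 of 0.44 (counting SE 0.032, adjusted p = 9.26e-41 by the exact binomial test). Mir181d was higher by 0.18 (counting SE 0.019, adjusted p = 1.10e-19) and Mir181c by 0.11 (counting SE 0.016, adjusted p = 6.65e-11). Mir181a-1 was the called member that was lower in replicate 1, at -0.21 (counting SE 0.025, adjusted p = 4.46e-16 by the exact binomial test). Mir181b-1, at 0.20 with a counting SE of 0.19, and Mir181a-2, at -0.0014 with a counting SE of 0.094, did not pass, and the sign of Mir181a-2 turns with the scaling. Their low counts leave wide intervals, so a difference of the size seen in Mir181a-1 was not detectable at this depth in Mir181b-1.

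Over all tested genes the quartiles of the log2 ratio were -0.24 and 0.25, around a median of 0.017. The median of the 6 members was 0.14. Mir181b-2 lay outside the quartiles of all genes, with 82 of 372 genes at a larger difference, and the other 5 members lay inside them.

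The partners on chromosome 8 had nearly equal differences between the libraries, and the partners of the other loci stood further apart. The log2 ratios of replicate 1 over replicate 2 were 0.073 apart for Mir181c and Mir181d, 0.41 apart for Mir181a-1 and Mir181b-1 and 0.44 apart for Mir181a-2 and Mir181b-2. Among the 109 other neighbouring pairs the median gap was 0.27. A larger gap was found in 89 of these than in the Mir181c pair, in 33 than in the Mir181a-1 pair and in 30 than in the Mir181a-2 pair. The gap of the Mir181a-1 pair carries the counting SE of Mir181b-1, 0.19, and none of these gaps was tested.

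**Figure D5:**
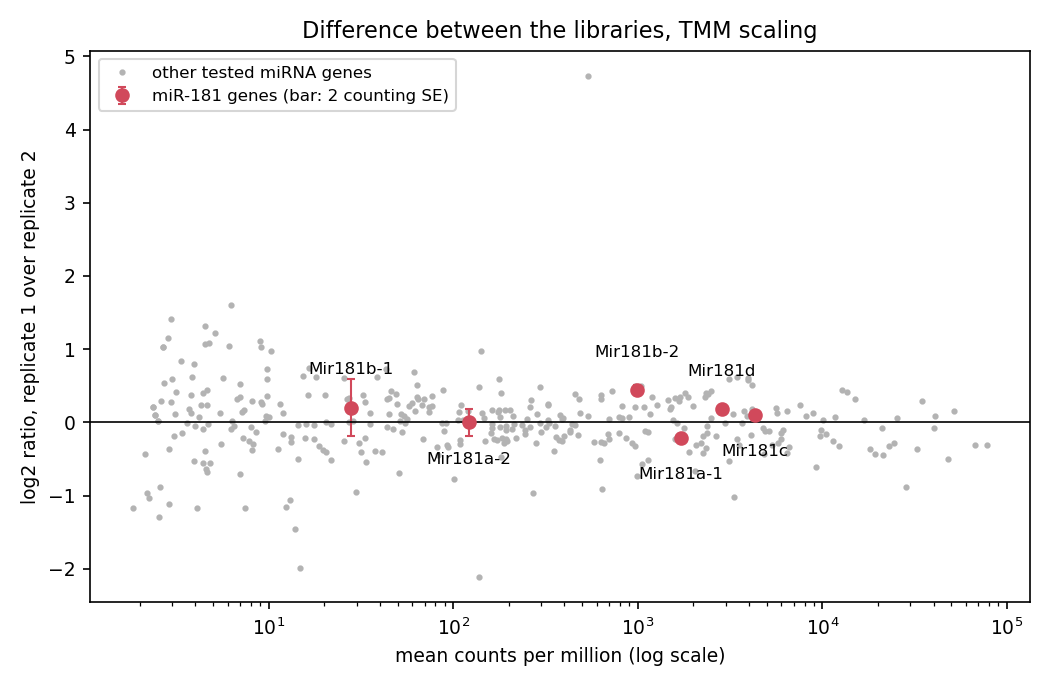
Log2 ratio of replicate 1 over replicate 2 after TMM scaling against mean CPM (log axis) for the 372 tested miRNA genes, with the miR-181 genes in red and bars of 2 counting standard errors. Mir181b-2 lies above 0 at 0.44 and Mir181a-1 below 0 at -0.21, and all 6 lie within the cloud of other genes.

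The labelled tissue holds epithelium, mesenchyme and cartilage, and all 13 markers listed for these passed the minimum of 10 counts. Markers of cell types in which the family is studied were counted as well. In a bulk sample fewer cells of a type and less RNA per cell cannot be told apart. Leukocyte and lymphoid markers, of which 3 of 5 were analysed, summed to 633 CPM in replicate 1 and 807 CPM in replicate 2. Mir223 of myeloid cells had 543 CPM in replicate 1, lower than its 710 CPM in replicate 2. Mir155, at 65.8 CPM in replicate 1 and 70.9 CPM in replicate 2, and Mir150, at 24.3 CPM in replicate 1 and 26.7 CPM in replicate 2, were not called. The endothelial marker Mir126a was lower in replicate 1, at 41674 CPM, than in replicate 2, at 54165 CPM. Skeletal muscle markers summed to 11714 CPM in replicate 1 and 13351 CPM in replicate 2, with Mir206 at 11447 CPM in replicate 1, lower than its 13094 CPM in replicate 2, and Mir133b not called. The makeup of this sum is limited by the counting, since Mir1a-1, Mir133a-1 and Mir133a-2 belong to sets of copies with the same mature miRNA, and the same limit holds for every marker with a copied arm.

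Neural markers summed to 1343 CPM in replicate 1 and 1098 CPM in replicate 2. Of their 6 tested genes, 1 was higher in replicate 1, namely Mir137 (740 CPM, against 522 CPM in replicate 2), and 1 was lower, Mir128-2 (178 CPM, against 190 CPM in replicate 2). Mir9-2, Mir124a-1, Mir124a-2 and Mir124a-3, markers of neurons and their progenitors, had 0 counts in both libraries. These 0 counts do not show absence: both arms of Mir9-2 are identical to those of Mir9-1 and Mir9-3, the Mir124a genes are copies with the same mature miRNA, and reads with several positions enter no gene. Mir9-3 did hold counts, at 2.57 CPM in replicate 1 and 5.60 CPM in replicate 2, and was not called. Which reads gave the counts of Mir9-3 was not examined. Epithelial markers had 1 of 7 higher and 5 lower in replicate 1, led by Mir203 (21094 CPM, against 35599 CPM in replicate 2). Mesenchymal markers had 2 of 4 higher and 0 lower, led by Mir214 (16135 CPM, against 11066 CPM in replicate 2), and of the cartilage markers Mir455 was higher and Mir140 lower. These directions are on the TMM scale. On the scale of total counts Mir140 (40807 CPM in replicate 1, 39367 CPM in replicate 2) and Mir200c (5148 CPM in replicate 1, 5141 CPM in replicate 2) were not lower in replicate 1. Over all tested genes 52.2% were called, 24.7% as higher and 27.4% as lower in replicate 1. The libraries thus differed in markers of several tissues, against a background in which about every other gene was called. The part of tissue composition in the differences of Mir181b-2, Mir181d, Mir181c and Mir181a-1 was not tested.

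The genes nearest to Mir181c in the pair of log2(CPM + 1) values over the 2 libraries were Mir30a (4657 CPM in replicate 1 and 3879 CPM in replicate 2, distance 0.034), Mir130b (4580 CPM in replicate 1, 3717 CPM in replicate 2, distance 0.099) and Mir151 (4205 CPM in replicate 1, 3621 CPM in replicate 2, distance 0.20). The sum of the chromosome 8 locus was nearest to Mir652, Mir21a and Mir205, at distances of 0.13 to 0.26. For the chromosome 1 locus the nearest were Mir148a, Mir28a and Mir134, at 0.096 to 0.19, and for the chromosome 2 locus Mir300, Mir467e and Mir107, at 0.13 to 0.17. Over 2 libraries of 1 tissue this likeness says that the counted levels are close.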

How the data were processed

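MicroRNA libraries of embryonic facial prominence (day 14.5, 2 replicates) were counted by the authors over the miRNA genes of GENCODE M4 on mm10, per the labels and the deposited text files that list each library's files. The deposited values are raw counts in 1973 gene rows and 4 summary rows for each library, with columns for both strands, the gene strand and the opposite strand. Which aligner and trimming were used is not given in the sources used here. The summary rows (with opposite-strand reads, 51.6% and 50.7% of reads) stayed out of library sizes. The columns and summary rows look like STAR gene counts, where reads with several positions count for no gene.

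Symbols and positions came from GENCODE M21 (1894 of 1973 identifiers matched). Sequences came from RefSeq GRCm38.p6, which holds both mature arms of all 6 members and the hairpins of 5. CPM was computed per library over all gene-strand counts. TMM factors were from edgeR 4.0.16, over genes with a mean of at least 10 counts. The exact binomial test (SciPy 1.17.1) ran over 372 genes. Its code was tried on simulated counts that held counting error only, so that trial does not cover spread between replicates beyond it. Log2 ratios used a prior of 0.5 counts. Alternatives were the unstranded column, other scalings including DESeq2 1.42.0 size factors, other filters and priors, 18- and 22-base windows and leaving out each replicate. Division by gene length was added after the data were seen. The labels number the samples as biological replicates, collected on different days. With 1 library each, p-values compare these 2 libraries and carry no estimate of spread.

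The members, marker lists and tests were chosen with earlier results of these data known. The text names all 6 members, the 3 nearest genes by level to Mir181c and to each locus, the highest genes of the marker lists and genes that overlap a member. The comparison of copied arms and of neighbouring pairs, and other genes named, were chosen after values were seen.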

Additional observations from a re-analysis of the deposited data

How the results depend on the processing

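Of 194 values recomputed under alternative settings, 175 kept their direction and stayed on the same side of the threshold, within 1 SD or, for counts of genes, within 1.5 times. Scaled to all reads, summary rows included, the family sum was 4891 CPM and the locus sums 3496 (chromosome 8), 853 (chromosome 1) and 542 CPM (chromosome 2), because the denominator about doubles; the shares of the loci do not depend on it. The chromosome 1 sum, which had a small SD, moved to 1668 CPM with the unstranded column and to 1892 CPM without Mirlet7i in the total. Divided by gene length, the log2 ratio of Mir181c over Mir181d was 0.30, against 0.60 undivided. With total counts in place of TMM, 64 genes were lower in replicate 1, against 102. The log2 ratio of Mir181a-2, close to 0, reversed to 0.12 with total counts and to 0.0020 with a prior of 2 counts, and was called under no setting. In the 4 called members, the 7 alternatives gave log2 ratios of 0.048 to 0.23 for Mir181c, 0.12 to 0.30 for Mir181d, 0.38 to 0.57 for Mir181b-2 and -0.26 to -0.082 for Mir181a-1, each with an adjusted p of at most 0.00526 by the exact binomial test. Leaving out either replicate moved each level, share and ratio by less than 1 SD, which 2 values always do, and left the test between libraries without a value. The precision of Mir181b-1 is limited by its 84 and 163 counts. No paired analysis was possible because there is 1 group.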

Other observations

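The chromosome 8 pair of miR-181 genes has another miRNA cluster as a neighbour, named here after its values were seen. Mir23a starts 29.6 kb from Mir181c on the other strand, followed by Mir27a and Mir24-2. Mir23a had 17266 CPM in replicate 1 and 21336 CPM in replicate 2, and its log2 ratio of replicate 1 over replicate 2 was -0.43, against 0.11 for Mir181c. Mir24-2 had 318 CPM in replicate 1 and 382 CPM in replicate 2, with a log2 ratio of -0.39 (adjusted p = 1.14e-11 by the exact binomial test), and Mir27a had 419 CPM in replicate 1 and 368 CPM in replicate 2, with a log2 ratio of 0.064 and was not called.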
